A study of Mus musculus with 4 samples.

Results

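The genes described here encode the cytokine TNF (Tnf), 4-1BB ligand (Tnfsf9), the TNF receptors TNFR1 (Tnfrsf1a) and TNFR2 (Tnfrsf1b), the related receptors CD40 (Cd40) and Fas (Fas), and the receptor adapters TRAF1 (Traf1) and TRAF2 (Traf2). They were chosen by exact gene symbol in the platform's annotation, which gave 8 genes with 10 probe sets, of 12393 genes and 22690 probe sets in all. Every member had at least 1 probe set, and Tnfrsf1b and Cd40 had 2 each. The arrays measured RNA of cultures labelled as synovial fibroblasts, the stromal cells of the joint lining. The cultures were grown from knees of male DBA/1J mice aged 8 to 12 weeks without arthritis and passaged 3 to 4 times. Macrophage genes were measured in these cultures as well, as described below. One dish received IL-1β at 5 ng/ml with 1 µM indomethacin and 1 µM iloprost, another IL-1β with 1 µM indomethacin, another IL-1β alone and the last vehicle, all for 6 h in medium low in serum. Indomethacin blocks the cyclooxygenases, the enzymes that start prostanoid synthesis, and iloprost mimics prostacyclin at its receptor. There is 1 array for each of the 4 treatments, so no value has an error between dishes and no test between treatments was possible. The dishes are named by the last agent added, iloprost for all 3 agents, indomethacin for the first 2 and IL-1β for that alone. Iloprost on IL-1β without indomethacin is not analysed here.

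TNF is made mainly by macrophages and other immune cells and acts on nearly all cells of the joint, where it drives fibroblasts to make cytokines, chemokines and proteases. Its receptors belong to a family whose members either recruit TRAF adapters directly, which lead to NF-κB and MAP kinases, or carry a death domain, as TNFR1 and Fas do, which can start caspase cascades. CD40 is the receptor for a ligand on activated T cells and is present on macrophages, B cells and stromal cells, and blocking TNF is a standard treatment of rheumatoid arthritis.

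Signals are linear. A floor was set at a signal of 37.6, the 50th percentile over the arrays, and dimmer signals were raised to it. With IL-1β the median gene was brighter than with vehicle by a log2 of 0.23, and ratios are therefore given relative to the median gene unless stated otherwise. The shift was -0.15 for IL-1β with indomethacin against IL-1β, 0.01 for iloprost added to these, and -0.14 for all 3 agents against IL-1β alone. Against vehicle it was 0.08 with indomethacin and 0.09 with all 3 agents. As a scale for measurement noise, log2 ratios of probe sets of the same gene spread about their gene's mean with a pooled SD. This SD was between 0.20 and 0.21 in the 6 comparisons and leaves out differences between dishes. Comparisons share arrays, so their ratios are not independent of each other. Of all genes past a 2-fold difference, 75.5% were higher with IL-1β than with vehicle, or 94.7% as deposited. For IL-1β with indomethacin against IL-1β the share was 27.0%, or 13% as deposited, and for all 3 agents against IL-1β it was 28.9%, or 16.7% as deposited.

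Tnf and Cd40 were several-fold lower in the dish with iloprost than in each of the other dishes, while the other measured members differed by less than 2-fold in every comparison. With iloprost against IL-1β and indomethacin, 2 of 7 measured members were at least 2-fold lower and 0 higher, where 3.19% of 6990 genes were lower by as much and 1.97% higher. Against IL-1β alone, Tnf and Cd40 were again the 2 lower members and 0 were higher, where 2.37% of 7050 genes were lower and 0.965% higher. Against vehicle they were the 2 lower members once more and 0 were higher, where 3.35% of 6985 genes were lower and 2.72% higher. In the comparisons without iloprost, 0 of 7 members reached 2-fold in either direction. For IL-1β against vehicle, 1.72% of 6965 genes were higher and 0.56% lower. For IL-1β with indomethacin against IL-1β, 0.245% of 6937 genes were higher and 0.663% lower, and against vehicle 1.29% of 6806 genes were higher and 0.323% lower. A count of 0 of 7 is near these shares and is no result about the members, and without replicates the 2 of 7 with iloprost has no test. Tnfsf9 lay below the floor on all 4 arrays and has no ratio.

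**Figure D1:**
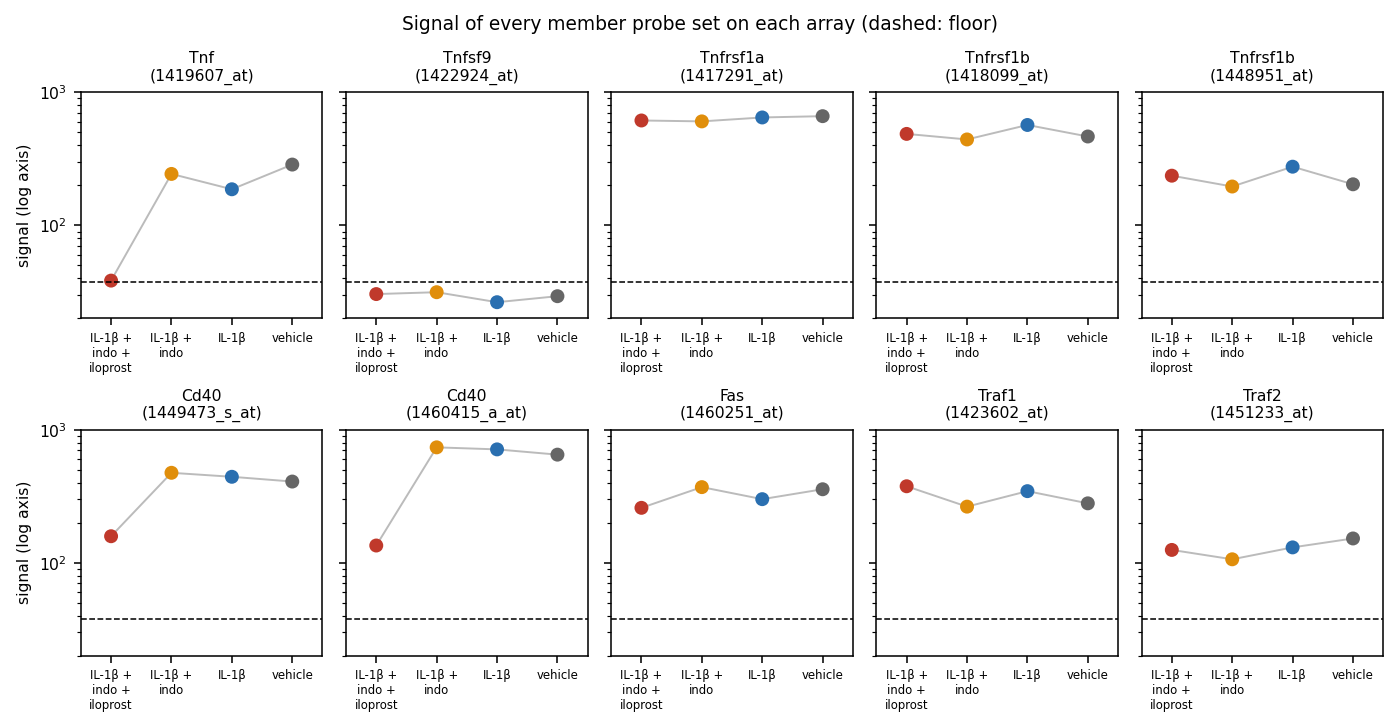
Signal of each of the 10 member probe sets (log axis) on the 4 arrays, 1 point per array, with treatments in the order IL-1β with indomethacin and iloprost, IL-1β with indomethacin, IL-1β, vehicle; the dashed line is the floor of 37.6. Tnf stands at 38.5 with iloprost and between 186.9 and 286.5 on the other arrays, and both Cd40 probe sets are lowest with iloprost.

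Tnf (probe set 1419607_at) encodes TNF itself, a cytokine made as a membrane protein and shed as a soluble trimer. Its signal was 38.5 with IL-1β, indomethacin and iloprost, 243.7 with IL-1β and indomethacin, 186.9 with IL-1β and 286.5 with vehicle. The vehicle dish thus had the highest Tnf signal and the dish with iloprost the lowest, just above the floor. Tnf was 6.37-fold lower with iloprost than with IL-1β and indomethacin, a log2 ratio of -2.67, and 21 of 6990 genes had a lower ratio or bound. As the signal with iloprost was 1.02 times the floor, these folds lie close to bounds, and after quantile normalization Tnf was below the floor and the ratio was at most -2.71. It was 4.41-fold lower than with IL-1β alone (log2 ratio -2.14) and 7.91-fold lower than with vehicle (log2 ratio -2.98), where 17 of 6985 genes lay lower. With the floor at the 65th percentile Tnf was at the floor with iloprost, and its log2 ratio was at most -1.46 against indomethacin and at most -0.93 against IL-1β, so that a 2-fold difference from IL-1β could not be told. RNA of all cells in a dish was measured together, so fewer cells that make Tnf and less Tnf RNA per cell cannot be told apart.

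Among the dishes without iloprost, Tnf differed less. Its log2 ratio was -0.84 for IL-1β against vehicle, or -0.62 as deposited, with 72 of 6965 genes lower. For IL-1β with indomethacin against IL-1β it was 0.53, or 0.38 as deposited, with 170 of 6937 genes higher, and for IL-1β with indomethacin against vehicle it was -0.31. These ratios are 3.97, 2.72 and 1.55 times the noise SD of their comparisons. So Tnf was ordered vehicle, IL-1β with indomethacin, IL-1β, and IL-1β with both drugs, from high to low, and how far the first 3 of these dishes differ beyond the spread of dishes is not known. For comparison, the cytokine gene Il6 was 3616.9 with iloprost, 3495.9 with indomethacin, 4757.2 with IL-1β and 311.8 with vehicle, so all 3 dishes with IL-1β had a higher Il6 signal than vehicle and a lower Tnf signal.

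The promoter of Tnf is shown because this gene had the largest difference of the members, and that of Tnfrsf1a because its ratio for iloprost against indomethacin was the closest to 0. Both are the 250 bases before the RefSeq transcription start in GRCm38.p6, a reference from another strain than DBA/1J, printed 5′ to 3′ on the gene's strand, and capitals mark matches to the motifs searched. The Tnf window is chr17:35202008-35202257 on the minus strand, and the Tnfrsf1a window is chr6:125349473-125349722 on the plus strand.
Tnf: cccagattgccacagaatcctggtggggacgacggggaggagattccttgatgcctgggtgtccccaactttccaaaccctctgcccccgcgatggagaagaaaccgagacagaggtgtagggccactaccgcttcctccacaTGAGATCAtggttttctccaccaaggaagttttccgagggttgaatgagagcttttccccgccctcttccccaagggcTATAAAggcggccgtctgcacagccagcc
Tnfrsf1a: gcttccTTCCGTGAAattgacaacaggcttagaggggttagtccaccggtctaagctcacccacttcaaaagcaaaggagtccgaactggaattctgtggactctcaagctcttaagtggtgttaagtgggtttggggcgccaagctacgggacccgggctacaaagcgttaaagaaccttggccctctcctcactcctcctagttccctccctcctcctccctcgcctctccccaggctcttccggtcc

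The motifs searched on both strands were TGANNTCA (like the cAMP response element), TGANTCA (AP-1), GGGNNTTNC (like part of a κB site), GAAANNGAA (like part of an interferon-stimulated response element), TTCNNNGAA (the STAT-binding GAS element) and TATAAA (the TATA box). Of all 32851 promoter windows, 11.9% held TGANNTCA, 6.75% TGANTCA, 13% GGGNNTTNC, 7.13% GAAANNGAA, 7.02% TTCNNNGAA and 12.4% TATAAA. The Tnf window held TGAGATCA, a match to TGANNTCA, starting at base -107 from the start, and TATAAA starting at -29. The Tnfrsf1a window held 1 match, the GAS match TTCCGTGAA at -244. The window of Fas held an AP-1 match at -211, a κB-like match at -160 and a GAS match at -93, that of Tnfrsf1b a GAS match at -181 and a match to the interferon-stimulated element at -9 on the opposite strand, and those of Traf1 and Traf2 held 0 matches. The table held 6 of the 8 members, without Cd40 and Tnfsf9. A match describes letters in these windows, and binding was not measured.

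Tnfsf9 (1422924_at) encodes 4-1BB ligand, which co-stimulates T cells through the receptor gene Tnfrsf9. The signal of Tnfsf9 was 30.5 with IL-1β, indomethacin and iloprost, 31.5 with IL-1β and indomethacin, 26.5 with IL-1β and 29.4 with vehicle, all below the floor. Tnfrsf9 had a signal of 52.1 with iloprost, against 4.5 with indomethacin, 10 with IL-1β and 2.9 with vehicle, so it was above the floor only on the array with iloprost. Relative to the floor and the median gene, Tnfrsf9 was higher with iloprost by a log2 of at least 0.46 against IL-1β and indomethacin.

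Tnfrsf1a (1417291_at) encodes TNFR1, the receptor with a death domain that is present on most cells. Its signal was 614.3 with iloprost, 604.7 with indomethacin, 647.2 with IL-1β and 661.9 with vehicle. The 4 arrays lay close together, with log2 ratios of 0.01 for iloprost against indomethacin, 0.06 for iloprost against IL-1β and 0.05 for indomethacin against IL-1β. The last 2 were -0.08 and -0.10 as deposited, and the first, 0.01, turned to -0.04 with the floor at the 25th percentile, so none of these 3 has a settled direction. For IL-1β against vehicle the log2 ratio was -0.26, or -0.03 as deposited.

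Tnfrsf1b encodes TNFR2, which lacks a death domain and signals through TRAF2, and is found mostly on leukocytes. The brighter of its probe sets, 1418099_at, had a signal of 487.0 with iloprost, 442.4 with indomethacin, 568.3 with IL-1β and 465.7 with vehicle. The dimmer one, 1448951_at, had 236.4 with iloprost, 196.0 with indomethacin, 276.2 with IL-1β and 203.7 with vehicle. Both probe sets had their highest signal with IL-1β alone and their lowest with IL-1β and indomethacin. The brighter one had log2 ratios of 0.06 for IL-1β against vehicle, -0.21 for indomethacin against IL-1β and 0.13 for iloprost against indomethacin, and the dimmer one had 0.21, -0.35 and 0.26 in the same comparisons, so each lay within 2 times the noise SD.

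Cd40 encodes the CD40 receptor, which on macrophages and stromal cells answers to T cells by inducing cytokines and adhesion molecules. The brighter of its probe sets, 1460415_a_at, had a signal of 134.9 with IL-1β, indomethacin and iloprost, 737.0 with IL-1β and indomethacin, 711.5 with IL-1β and 649.7 with vehicle. The dimmer one, 1449473_s_at, had 158.4 with iloprost, 474.6 with indomethacin, 442.9 with IL-1β and 407.9 with vehicle. On both probe sets the dish with iloprost stood apart and the other dishes lay close together.

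The brighter Cd40 probe set was 5.50-fold lower with iloprost than with IL-1β and indomethacin, a log2 ratio of -2.46, with 26 of 6990 genes lower. The dimmer one was 3.01-fold lower, a log2 ratio of -1.59. The probe sets thus differed in size by 0.87 and had the same direction. The difference is more than the noise SD of 0.20, although that SD is about a gene's mean and differences between probe sets spread more widely. This gap was 0.92 for iloprost against IL-1β and 0.90 against vehicle, and from 0.01 to 0.05 in the comparisons without iloprost. How large the Cd40 difference with iloprost was is therefore not settled between the probe sets. Against IL-1β alone the log2 ratios were -2.26 and -1.34, and against vehicle -2.36 and -1.45. Without iloprost the differences were small: the brighter probe set had a log2 ratio of 0.20 for indomethacin against IL-1β and of -0.10 for IL-1β against vehicle, which was 0.13 as deposited.

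Fas (1460251_at) encodes the death receptor for Fas ligand. Its signal was 258.9 with iloprost, 370.4 with indomethacin, 300.8 with IL-1β and 357.0 with vehicle, so the array with iloprost was again the lowest. The log2 ratio was -0.53 for iloprost against indomethacin, with 580 of 6990 genes lower, 0.45 for indomethacin against IL-1β and -0.48 for IL-1β against vehicle, which was -0.25 as deposited. Relative to the median gene, each of these 3 ratios is more than 2 times the noise SD, and none reached 2-fold. Against IL-1β alone the dish with iloprost had a log2 ratio of -0.08.

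Traf1 (1423602_at) encodes an adapter that is itself a target of NF-κB and modifies signals of TNFR2 and CD40. Its signal was 376.0 with iloprost, 264.3 with indomethacin, 345.5 with IL-1β and 279.8 with vehicle. Traf1 was the member highest with iloprost against indomethacin, at a log2 ratio of 0.50, with 716 of 6990 genes higher, while Tnf, Cd40 and Fas were lower in the same comparison. Its log2 ratio was -0.24 for indomethacin against IL-1β and 0.08 for IL-1β against vehicle, or 0.30 as deposited.

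Traf2 (1451233_at) encodes the adapter that binds TNFR2, CD40 and, through TRADD, TNFR1, and brings ubiquitin ligases to them. Its signal was 125.0 with iloprost, 106.3 with indomethacin, 130.6 with IL-1β and 152.4 with vehicle. The vehicle array was the highest, and the lowest log2 ratio was -0.60 for IL-1β with indomethacin against vehicle, with 184 of 6806 genes lower. For iloprost against indomethacin the log2 ratio was 0.23, for indomethacin against IL-1β -0.15 and for IL-1β against vehicle -0.45, or -0.22 as deposited.

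**Figure D2:**
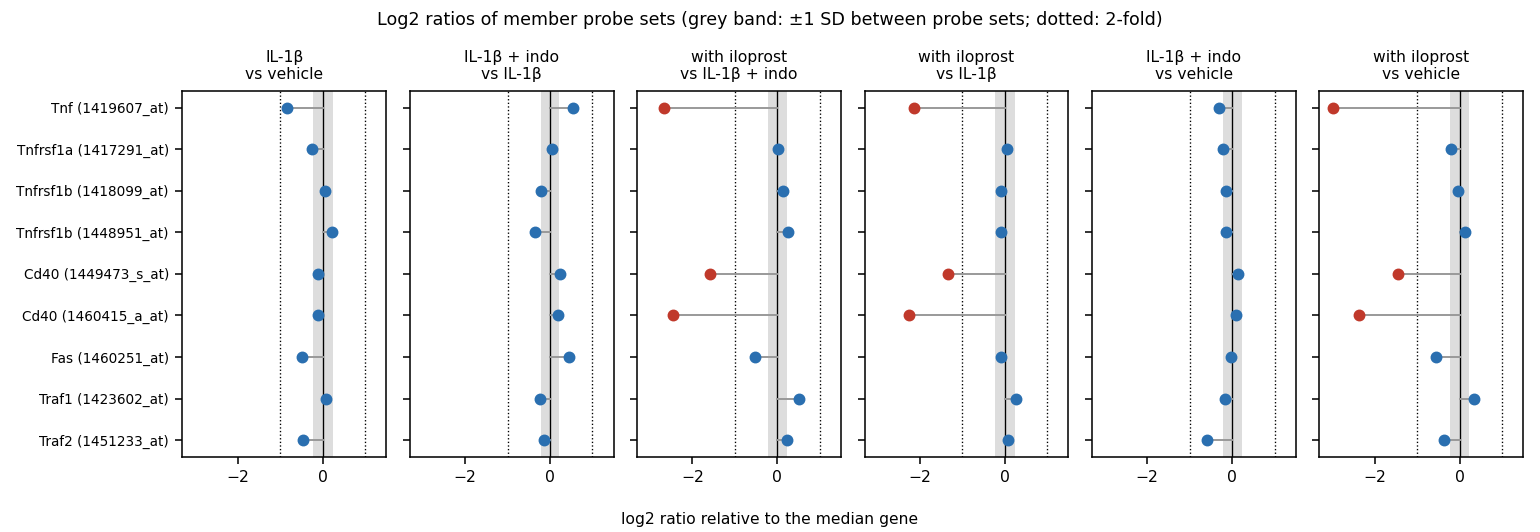
Log2 ratios of 9 member probe sets relative to the median gene (x axis) in the 6 comparisons, 1 panel each; the grey band is 1 SD of noise between probe sets on either side of 0, dotted lines mark 2-fold, and red points are past 2-fold. Only Tnf and Cd40 are red, in the 3 comparisons of the dish with iloprost, with the lowest point at -2.98 for Tnf against vehicle.

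The other genes of the pathway were described by lists. Of 17 TNF superfamily ligands, 13 had a usable probe set and 4 were above the floor on at least 1 array. Lta and Ltb, which encode the lymphotoxins and neighbour Tnf in the genome, had signals from 0.8 to 1.9 and from 2.8 to 8.4, below the floor on all arrays. Tnfsf11, which encodes the osteoclast factor RANKL, was 165.7 with iloprost, 23.8 with indomethacin, 198.9 with IL-1β and 10.9 with vehicle. It was higher with iloprost than with indomethacin by a log2 of at least 2.13. Tnfsf4, which encodes OX40 ligand, was 84.3 with iloprost, 35.5 with indomethacin, 33.8 with IL-1β and 52.6 with vehicle, and was higher with iloprost than with indomethacin by a log2 of at least 1.16. Tnfsf10, which encodes the death ligand TRAIL and was named after its values were seen, was 4.9 with iloprost, 42.5 with indomethacin, 32.9 with IL-1β and 48.4 with vehicle, a log2 ratio of at most -0.19 for iloprost against indomethacin. So of the 4 ligands with a ratio or bound in that comparison, 2 were at least 2-fold higher and 1, Tnf, at least 2-fold lower. Over all genes 1.97% were higher and 3.19% lower. Tnfsf11 and Tnfsf4 entered this count only through their signal with iloprost, and Tnfsf10 only through that with indomethacin. The count is thus partly fixed by the floor and is no result about the ligands. Tnf alone was above the floor on both arrays, so the ligands have no median ratio.

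Of 27 TNF superfamily receptors, 25 had a usable probe set and 12 were above the floor on at least 1 array. With iloprost against indomethacin, Cd40 was the 1 receptor of 12 at least 2-fold lower, where 3.19% of all genes were lower and 1.97% higher. The receptors had a median log2 ratio of 0.02, beside 0.04 over all genes. By ratio or bound 0 were higher, but Tnfrsf9 had only a bound, of at least 0.46, so 2-fold could not be told for it. With IL-1β against vehicle, 1 of 11 was higher and 0 lower, where 1.72% of all genes were higher and 0.56% lower. The median was 0.06, beside -0.02 over all genes. In both comparisons a count of 1 is no result about the receptors as a list. The higher one was Tnfrsf12a, the receptor for the ligand TWEAK, with a signal of 241.7 with iloprost, 303.6 with indomethacin, 345.7 with IL-1β and 136.5 with vehicle. Its log2 ratio for IL-1β against vehicle was 1.11. Tnfrsf11b had only a bound in that comparison, of at least 0.82, so 2-fold could not be told for it.

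Of 21 TRAFs, adapters and ubiquitin regulators with a ratio or bound for iloprost against indomethacin, 0 reached 2-fold in either direction. Over all genes 3.19% were lower and 1.97% higher, so a count of 0 is near these shares. The median log2 ratio of the list was at most -0.06, the bound of Traf5, and Map3k14 had only a bound of at least 0.17. Against IL-1β alone 1 of 21 was lower and 0 higher, where 2.37% of all genes were lower and 0.965% higher. The lower one was Tank, a TRAF-binding regulator of NF-κB and interferon kinases. Tank had a signal of 195.9 with iloprost, 297.6 with indomethacin, 454.6 with IL-1β and 457.1 with vehicle. Its log2 ratio for iloprost against IL-1β was -1.08. Tnfaip3, which encodes the ubiquitin-editing feedback inhibitor A20, was 264.7 with iloprost, 483.2 with indomethacin, 434.2 with IL-1β and 202.1 with vehicle, a log2 ratio of -0.88 for iloprost against indomethacin. This was the lowest ratio of the list in that comparison, and the highest was 0.61. By ratio or bound 9 of 21 lay above the median gene and 12 below. Of 12 NF-κB kinases, subunits and inhibitors, 0 reached 2-fold with iloprost against indomethacin, again near the shares over all genes. Their median was -0.22, and 9 of 12 lay below the median gene. With IL-1β against vehicle 1 of 12 was higher and 0 lower, where 1.72% of all genes were higher and 0.56% lower. A count of 1 is no result about the list. The higher one was the atypical inhibitor Nfkbiz. It had a signal of 1074.6 with IL-1β, against 334.0 with vehicle, a log2 ratio of 1.46 for IL-1β against vehicle.

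Among genes of death signalling, 2 of 10 were at least 2-fold lower with iloprost than with indomethacin and 0 higher. Over all genes 3.19% were lower by as much and 1.97% higher. The list had a median log2 ratio of -0.32, beside 0.04 over all genes. Daxx, named for its binding to Fas and known as a nuclear histone chaperone, was 133.9 with iloprost, 559.3 with indomethacin, 441.6 with IL-1β and 582.4 with vehicle, a log2 ratio of -2.07. Bcl2l1, which encodes the survival protein BCL-XL, was 42.1 with iloprost, 114.9 with indomethacin, 116.8 with IL-1β and 60.1 with vehicle, a log2 ratio of -1.46. Its signal with iloprost was near the floor of 37.6, so this ratio lies close to a bound. Bcl2l1 was highest with IL-1β and with indomethacin, and Daxx had the same order of dishes as Tnf. The log2 ratio of Daxx for indomethacin against vehicle was -0.14, within the noise SD. Daxx was also named for passing 2-fold on these same arrays, so the shared order is no separate result.

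Genes that control Tnf mRNA or shed the protein were 0 of 11 past 2-fold with iloprost against indomethacin. This is near the shares over all genes, 3.19% lower and 1.97% higher. The list had a median log2 ratio of -0.28 and 9 of 11 below the median gene. Adam17, the protease that sheds TNF and its receptors, was 526.1 with iloprost, 984.7 with indomethacin, 902.7 with IL-1β and 898.1 with vehicle, a log2 ratio of -0.91 for iloprost against indomethacin. Zfp36, whose product tristetraprolin destabilises Tnf mRNA, was 298.8 with iloprost, 419.7 with indomethacin, 424.3 with IL-1β and 390.0 with vehicle, a log2 ratio of -0.50. With IL-1β against vehicle 1 of 11 was at least 2-fold higher and 0 lower, where 1.72% of all genes were higher and 0.56% lower. A count of 1 is no result about the list. The higher one was Zc3h12a, whose product is an RNase that degrades cytokine mRNAs. Its signal was 300.2 with iloprost, 362.7 with indomethacin, 439.2 with IL-1β and 42.2 with vehicle, a log2 ratio of 3.15 for IL-1β against vehicle.

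Partners of CD40 in co-stimulation and adhesion were the list with the lowest median of the 7 with iloprost against indomethacin. Of 12 listed partners, 5 were below the floor on all arrays: Ciita, H2-Aa, H2-Ab1, H2-Eb1 and Pdcd1lg2. With iloprost against indomethacin, 3 of 6 measured partners were at least 2-fold lower and 0 higher, beside 3.19% and 1.97% of all genes. The median log2 ratio was -1.02, beside 0.04 over all genes. Cd274, which encodes the inhibitory ligand PD-L1, was 116.4 with iloprost, 574.8 with indomethacin, 413.4 with IL-1β and 301.1 with vehicle, a log2 ratio of -2.31. Icam1, an adhesion molecule for leukocytes, was 731.5 with iloprost and 1791.1 with indomethacin, a log2 ratio of -1.30. Icosl, the ligand of the T-cell receptor ICOS, was 68.0 with iloprost and 153.1 with indomethacin, a log2 ratio of -1.18. Cd80, a ligand of CD28, was higher, at 82.4 with iloprost and 47.3 with indomethacin, a log2 ratio of 0.79, and Cd86 was at -0.47.

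**Figure D3:**
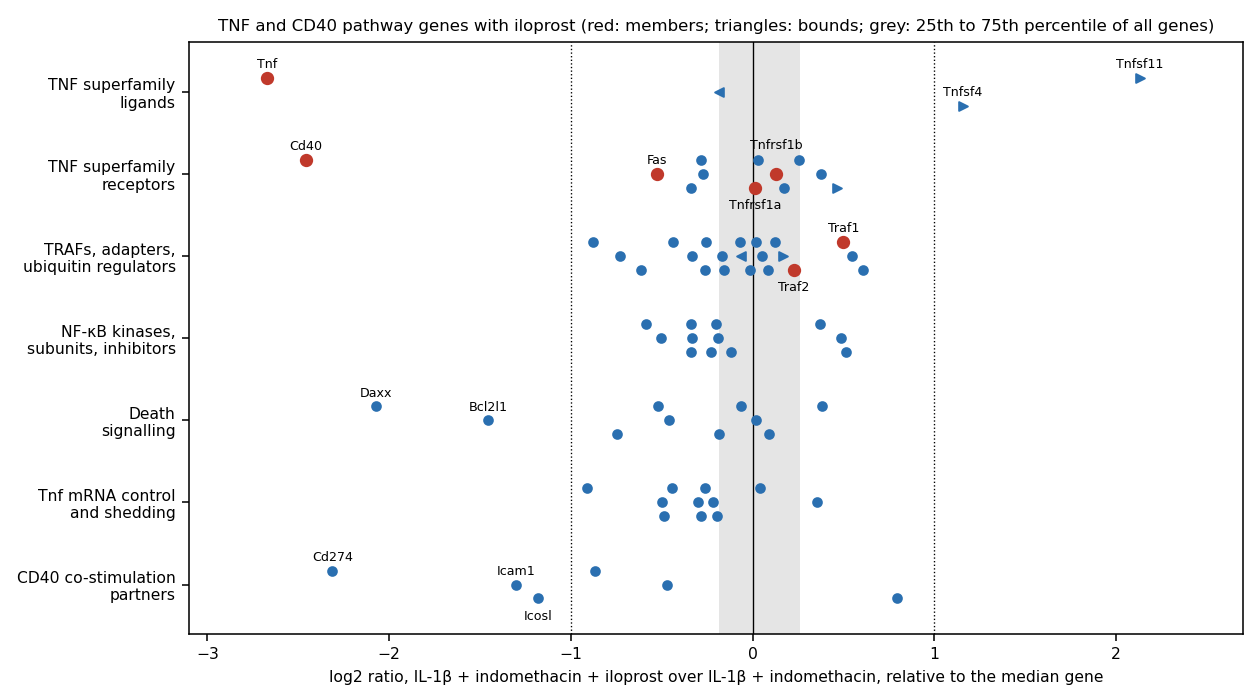
Log2 ratios of IL-1β with indomethacin and iloprost over IL-1β with indomethacin, relative to the median gene (x axis), for the genes of 7 lists (rows), 1 point per gene; red points are members, triangles are bounds, dotted lines mark 2-fold and grey spans the 25th to 75th percentile of all genes. Tnf at -2.67, Cd40 at -2.46, Cd274 at -2.31 and Daxx at -2.07 lie farthest to the left, and Tnfsf11 and Tnfsf4 farthest to the right.

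Genes with the profile most like that of Tnf and of Cd40 were found by the Euclidean distance between log2 profiles over the 4 arrays, each relative to the median gene and centred on its mean, among 4689 genes with a signal of 113.2 or more on their brightest array. Nearest to Tnf was Gbp6, a guanylate-binding protein gene induced by interferon, at a distance of 0.14. It was 99.6 with iloprost, 629.9 with indomethacin, 529.1 with IL-1β and 711.9 with vehicle, so its dishes had the order of those of Tnf. Next were Nt5c3, a pyrimidine nucleotidase gene, at 0.19, and Ifit1, an antiviral gene induced by interferon, at 0.23. Their log2 ratios for iloprost against indomethacin were -2.45 and -2.82. Nearest to Cd40 were Gbp7, another guanylate-binding protein gene, at 0.14, Slamf9, a receptor gene of the SLAM family, at 0.19, and Fgl2, which encodes a fibrinogen-like protein, at 0.21. Gbp7 was 143.4 with iloprost, 809.2 with indomethacin, 850.1 with IL-1β and 771.1 with vehicle. Tnf and Cd40 were 0.57 apart. These distances rest on 4 arrays, and in all of these genes the array with iloprost was the lowest. The nearest genes were chosen for likeness on these same arrays. Their low signal with iloprost and the order of dishes of Gbp6 thus follow from that choice and are no separate result.

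**Figure D4:**
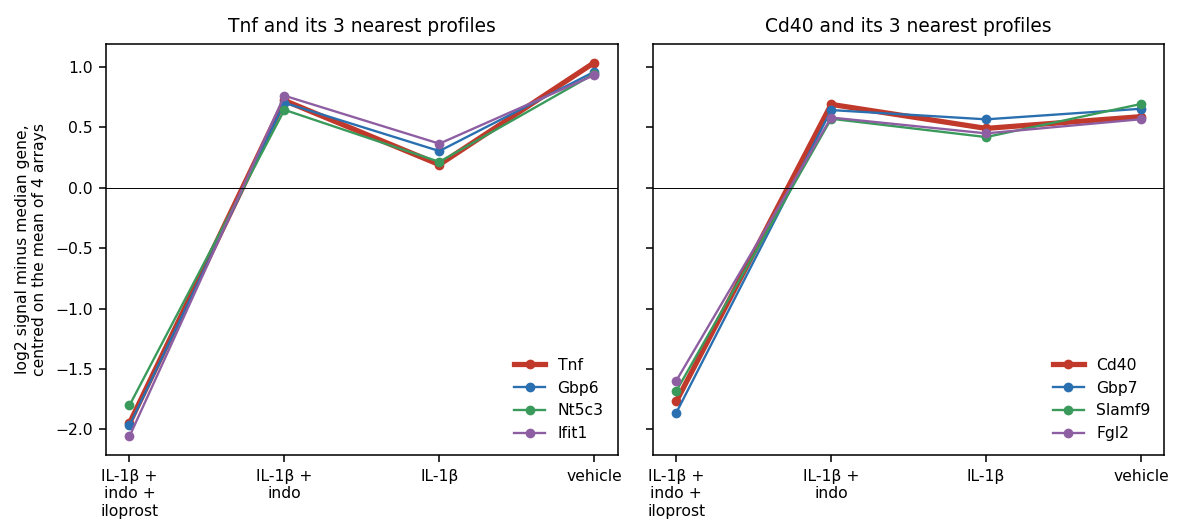
Log2 signal relative to the median gene and centred on the mean of the 4 arrays (y axis) for Tnf (left) and Cd40 (right) in red, each with the 3 genes nearest in profile, over the treatments on the x axis. All 8 profiles are lowest with iloprost, which for the nearest genes follows from their choice on these same arrays. The Tnf panel shows a higher level with vehicle than with IL-1β.

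The labelled cell type was checked against markers. All 16 fibroblast markers and all 20 macrophage markers were above the floor on at least 1 array, while 6 T-cell, 4 B-cell, 5 dendritic-cell and 5 endothelial markers were below it on every array, with signals of at most 12, 10.9, 31.8 and 17. Macrophage genes were thus measured in cultures labelled as fibroblasts, and macrophages are known to express Tnf and Cd40. The summed signal of the macrophage markers was 36609 with iloprost, 39751 with indomethacin, 46583 with IL-1β and 40488 with vehicle, and that of the fibroblast markers 38442 with iloprost, 35652 with indomethacin, 39304 with IL-1β and 35800 with vehicle. With iloprost against indomethacin, 16 of 20 macrophage markers lay below the median gene and 1 was at least 2-fold lower, with a median log2 ratio of -0.23 and a range from -1.46 to 0.62. The ratios of Tnf and of both Cd40 probe sets were below that range. Of the macrophage markers, Csf1r and Lyz2 were at -0.07 and -0.09, Adgre1 at -0.77 and Fcgr1 at -1.46. Cybb was at -0.75, Aif1 at -0.74 and C1qa at -0.62, while Cd14 was at 0.62 and Itgam at 0.23. Fibroblast markers had a median of 0.07 and a range from -0.43 to 0.99. With IL-1β against vehicle, the macrophage markers ranged from -0.31 to 0.31, and Tnf at -0.84 was below all 20. With indomethacin against IL-1β they ranged from -0.49 to 0.19, and Tnf at 0.53 was above all 20. The part of macrophage number in the levels of Tnf and Cd40 was not tested.

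**Figure D5:**
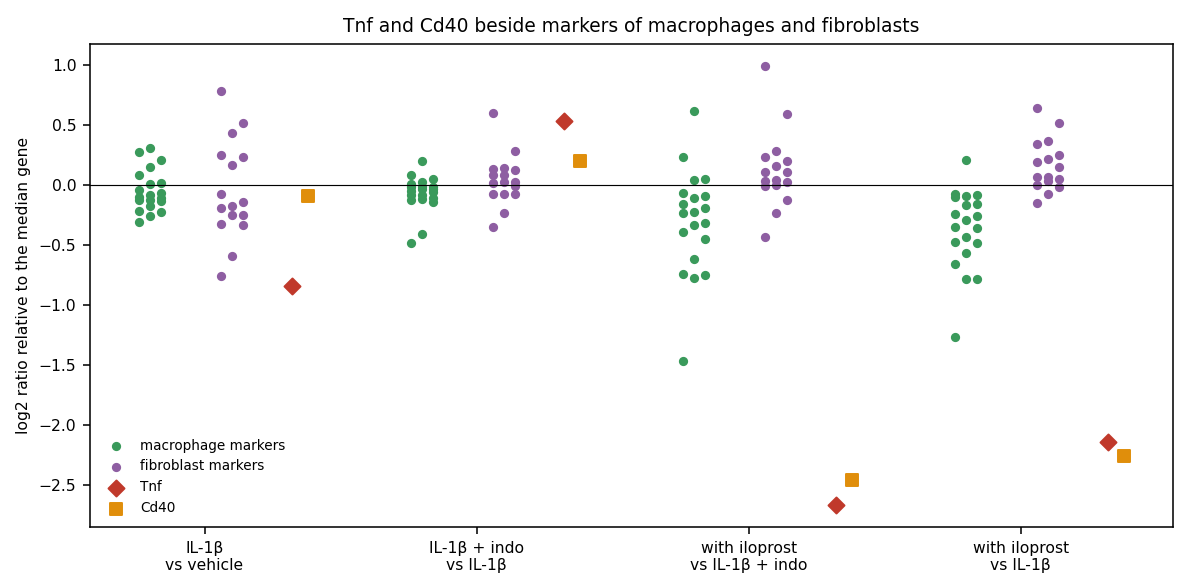
Log2 ratios relative to the median gene (y axis) in 4 comparisons (x axis) for 20 macrophage markers (green), 16 fibroblast markers (purple), Tnf (red diamond) and the brighter Cd40 probe set (orange square). In the comparisons with iloprost, Tnf and Cd40 lie below every marker, the lowest of which is at -1.46.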

How the data were processed

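The authors deposited an intensity, on a linear scale, for every probe set of each array. Per the labels' protocols, RNA was labelled and hybridised by the standard Affymetrix procedure. How probe sets were summarised, background was corrected and arrays were scaled is not given in the sources used here. Precision is limited by the number of arrays, and no detection call was used.

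Gene names came from the platform annotation, which can be old. The symbols of all 10 member probe sets matched the RefSeq table of GRCm38.p6 by gene number. Of 22690 probe sets, 1606 are unnamed here, 691 name several genes and 64 are controls, all left out. Signals were floored at 37.6 before log2. The brightest probe set stood for its gene. A ratio with 1 array at the floor is a bound, and counts past 2-fold use the bound, so they can miss larger differences. Ratios are relative to the median of the 6227 genes that passed the floor on all arrays. Python 3.11.15, numpy 2.4.6 and pandas 2.3.3 were used, and the ratio step was tested on simulated data. Only bright genes were changed in that simulation, so it did not cover ratios near the floor or bounds.

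Named were all members, up to 4 genes per pathway list past 2-fold in 1 of the first 4 comparisons, the 3 nearest profiles of members that spanned 2-fold, and markers; 4 prostanoid genes of the same rule are not printed. Lta, Ltb, Tnfsf10, Tnfrsf9, Tnfaip3, Adam17, Zfp36, Cd80, Cd86 and Il6 were named after their values were seen. The κB-like and interferon-stimulated motifs were shortened by 1 letter after a first search, in which Fas held no κB-like match. Members and lists were chosen with earlier results of these data known. List genes without a usable probe set are not analysed here.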

Additional observations from a re-analysis of the deposited data

How the results depend on the processing

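Alternatives were the scale as deposited, quantile normalization, other floors, no floor with 16 added to each signal, and the median of a gene's probe sets. With 1 array per treatment no array can be left out, and no paired analysis was possible because each group has 1 array. Of 252 member ratios under these alternatives, 236 moved by no more than the noise SD and 16 by more. None of the ratios past 2-fold changed sign, and the 10 changes of sign were of ratios no larger than 0.10 in size. The 16 were all 7 ratios of IL-1β against vehicle as deposited, and ratios of Tnf (6) and Cd40 (3) in the dish with iloprost. For iloprost against indomethacin, Cd40 ranged from -2.52 to -2.02. Tnf ranged from -2.73 to -2.26 where it was above the floor, and was at most -2.71 after quantile normalization and at most -1.46 with the floor at the 65th percentile. Tnf with iloprost was 1.02 times the floor of 37.6 and, when the 65th percentile (a signal of 87) was the floor, its ratio against IL-1β was a bound of at most -0.93. The count of members past 2-fold in that comparison was then 1, against 2. The member counts of the other comparisons did not change. Tnfsf9 had a ratio only with the lower floor or none, from -0.37 to 0.40. Counts of all genes past 2-fold depended on the floor. At the 25th percentile they were 554 for IL-1β against vehicle, 414 for indomethacin against IL-1β, 825 for iloprost against indomethacin, 648 for iloprost against IL-1β, 476 for indomethacin against vehicle and 854 for iloprost against vehicle, against 159, 63, 361, 235, 110 and 424. At the 65th percentile they were 97, 40, 155 and 67 for IL-1β against vehicle, indomethacin against IL-1β, iloprost against IL-1β and indomethacin against vehicle, and 248 and 288 for iloprost against indomethacin and against vehicle. The cause was not tested.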
